A study of Homo sapiens with 10 samples.

Results

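The DNA replication and licensing genes described here are 43 genes chosen by name, from the factors that load the replicative helicase onto origins to the enzymes that make and assemble new DNA. All 43 were found by their Ensembl identifier among the 21174 genes of the count table, and all 43 were among the 11961 genes that passed the filter on low counts. Their mRNA was measured by RNA sequencing in 10 libraries of U2932, an established line of diffuse large B cell lymphoma. Of these libraries, 5 came from clones labelled CREBBP+/+ (WT_1 to WT_5) and 5 from clones labelled CREBBP+/- (Het_6 to Het_10), and the labels name no treatment for either. CREBBP encodes a histone acetyltransferase, and the labels do not say how its allele was altered. They also leave unsaid whether each library is a culture or clone of its own, so the p-values speak only of scatter among these 10 libraries, which may be technical.

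Total counts per library lay between 10615977 (Het_9) and 23020694 (Het_6). Levels are given as CPM, counts scaled to an effective library size (the total times its TMM factor) of 1000000. The targeted gene, CREBBP, was at 103 to 136 CPM in the CREBBP+/+ group and did not overlap with the 56.8 to 80.7 CPM of the CREBBP+/- group. The B cell markers CD79A, CD79B, PAX5, MS4A1 and CD22 were expressed. Of 12 markers of other cells, 4 (CD3D, CD2, NKG7 and HBB) had no count in any library, and all 12 together reached no more than 2.56 CPM in a CREBBP+/+ and 3.95 CPM in a CREBBP+/- library. By all tested genes other than the 43, the libraries were divided into 3 clusters, a number that was set. The clusters cross the genotypes: WT_1, WT_2 and Het_8, then WT_3, WT_4, WT_5, Het_6 and Het_7, and then Het_9 and Het_10, which have no CREBBP+/+ partner.

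Replication is prepared in G1, when the origin recognition complex, CDC6 and CDT1 load the ring of MCM2 to MCM7 onto DNA, a step called licensing. CDT1 is then removed or held by geminin, so that no origin is licensed again in the same cycle. At the start of S phase CDC45 and the GINS complex turn the loaded ring into a working helicase, and polymerases, the PCNA clamp and its loader copy the strands. Many of these genes are known targets of E2F transcription factors, which cyclin E and its kinase release from RB, and germinal centre B cells, the normal counterpart of many such lymphomas, are among the fastest dividing cells of the body.

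The promoters are shown because an E2F word is what many of the 43 genes share apart from their names. RefSeq promoters (GRCh38.p14, 250 bases before to 50 after the annotated start) were found for 39 of the 43 genes, without MCM4, MCM5, GINS4 and CCNE2. Of each of the 39 only the first listed start was used, so a word at another start is not seen. For UHRF1 this start lies inside the annotated gene, which begins at 4903080 on chromosome 19. The words searched on both strands were TTTGGCGC, TTTGCCGC, TTTCGCGC and TTTCCCGC, which can overlap each other. At least 1 word stood in 21 of the 39 promoters (53.8%), against 5.35% of the promoters of 9313 other tested genes. Of all 34943 RefSeq promoters, not limited to 1 per gene, 3.30% held a word. The median GC content was 65.7% in the 39 promoters and 65.3% in those of the other tested genes. The promoter stretches below run from 160 bases before to 10 bases from the start, with the words of either strand in capitals. CDT1 is shown for its genotype difference, E2F1 for its spread among libraries, MCM6 for its repeated word, GINS2 and UHRF1 as genes of other roles with a word beside the start, and TK1 as the gene of widest range among those without a word.
CDT1 (chr16:88803629-88803798, plus strand): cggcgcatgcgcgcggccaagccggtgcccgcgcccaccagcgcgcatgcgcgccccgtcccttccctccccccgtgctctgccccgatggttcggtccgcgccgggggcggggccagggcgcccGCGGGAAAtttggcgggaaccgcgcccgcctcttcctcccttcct
E2F1 (chr20:33686376-33686545, minus strand): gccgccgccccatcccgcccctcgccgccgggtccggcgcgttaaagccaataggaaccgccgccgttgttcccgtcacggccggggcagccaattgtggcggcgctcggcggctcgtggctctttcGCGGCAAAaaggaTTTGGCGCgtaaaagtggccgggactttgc
MCM6 (chr2:135876434-135876603, minus strand): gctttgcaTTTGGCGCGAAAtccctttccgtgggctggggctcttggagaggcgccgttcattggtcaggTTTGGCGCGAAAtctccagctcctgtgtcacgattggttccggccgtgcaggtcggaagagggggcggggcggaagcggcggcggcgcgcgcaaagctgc
GINS2 (chr16:85688945-85689114, minus strand): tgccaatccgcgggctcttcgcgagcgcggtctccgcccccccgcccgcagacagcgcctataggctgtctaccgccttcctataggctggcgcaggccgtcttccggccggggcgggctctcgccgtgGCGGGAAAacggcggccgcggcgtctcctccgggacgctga
UHRF1 (chr19:4909341-4909510, plus strand): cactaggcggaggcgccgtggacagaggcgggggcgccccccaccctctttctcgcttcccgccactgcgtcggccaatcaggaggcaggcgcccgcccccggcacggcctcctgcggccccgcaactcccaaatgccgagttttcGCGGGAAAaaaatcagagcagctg
TK1 (chr17:78187195-78187364, minus strand): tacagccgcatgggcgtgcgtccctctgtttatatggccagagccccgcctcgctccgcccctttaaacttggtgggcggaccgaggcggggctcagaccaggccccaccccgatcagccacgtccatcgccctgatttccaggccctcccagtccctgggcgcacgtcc

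In CDT1 the word begins 35 bases before the start and reads GCGGGAAA, the reverse complement of TTTCCCGC. GINS2 and UHRF1 carry the same word in the same orientation at 31 and 14 bases before the start used, which lies inside each gene. MCM6 holds a run of 12 bases, in which TTTGGCGC overlaps TTTCGCGC of the other strand, at 152 and again at 90 bases before the start. E2F1 holds words at 33 and 20 bases. By role, words stood in 6 of 9 promoters of licensing genes, 3 of 5 of helicase activation, 6 of 11 of polymerase, clamp and strand joining genes, 1 of 4 of nucleotide supply, 1 of 5 of chromatin assembly and 4 of 5 of S phase entry and checkpoint genes. Such a match is a description of letters and was not tested as a binding site.

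The comparison of genotypes asked which transcripts differ when 1 CREBBP allele is altered. Across the 43 genes the differences were small: none reached 0.5 in log2 fold change (CREBBP+/- over CREBBP+/+) in either direction. Most tested genes also stayed below this size, and 907 of 11961 exceeded it. The estimates ran from -0.39 for CDT1 to 0.11 for RRM1, and 29 of 43 lay below 0 (67.4%), with a median of -0.06. Among all tested genes 52.4% lay below 0, with a median of -0.01. edgeR's quasi-likelihood test with Benjamini-Hochberg adjustment called 0 of the 43 and 0% of all genes, with 0.05 as the threshold. Before adjustment it passed 3 of the 43 at that level (CDT1, POLD1 and POLE, all lower), where 4.98% of all genes passed in either direction and 2.6% as lower. limma-voom also called 0 of the 43 and 0% of all genes. DESeq2 called 1 of the 43, CDT1, and 0.212% of genes, 0.128% as lower. Its shares are over the genes to which it gave an adjusted p, here 15587, and not over the 11961 of the other tools. CREBBP itself, at a log2 fold change of -0.73, was not called by edgeR (adjusted p = 0.395) or limma-voom (adjusted p = 0.376). DESeq2 called CREBBP (adjusted p = 0.000128), so a gene that edgeR did not call may still differ.

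**Figure D1:**
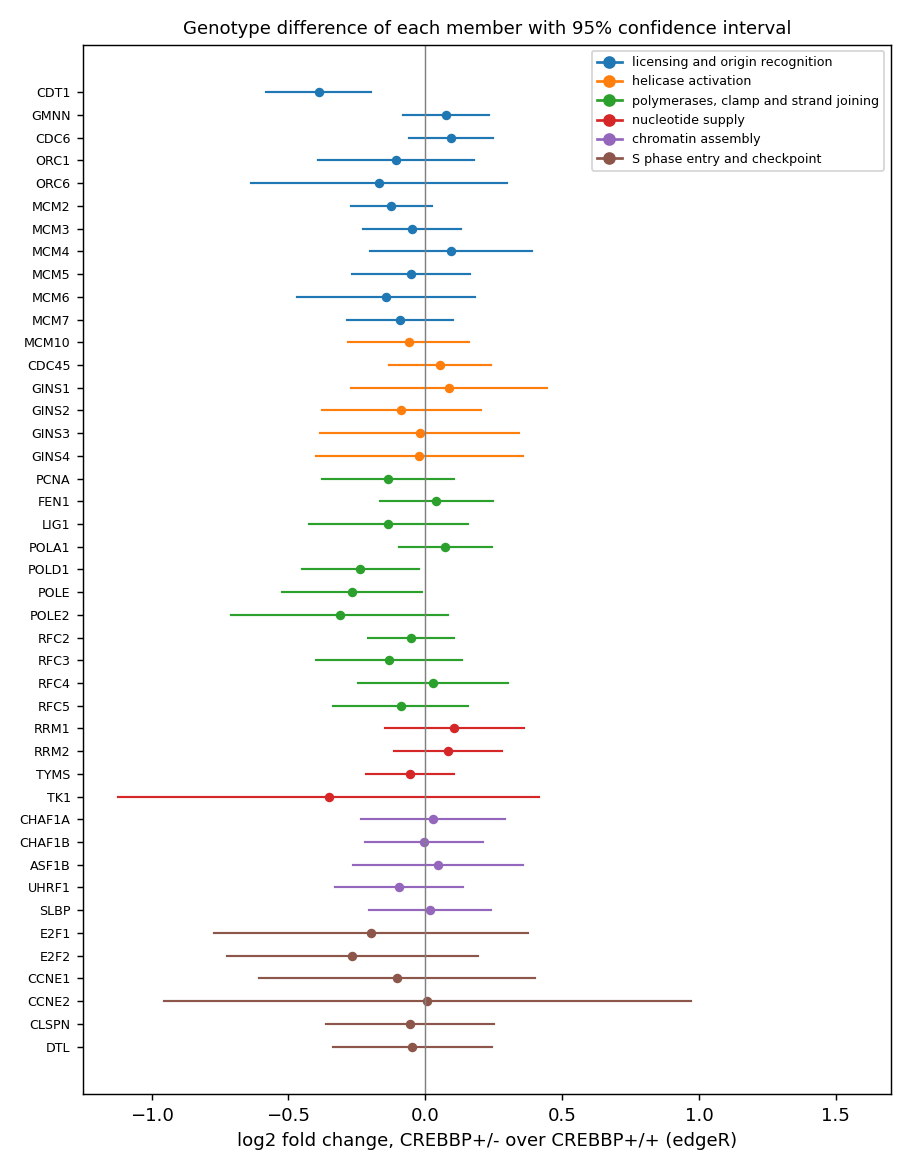
Log2 fold change of each of the 43 genes, CREBBP+/- over CREBBP+/+, on the x axis, with points for the edgeR estimate and lines for its 95% confidence interval, coloured by role. CDT1 (-0.39), POLD1 (-0.24) and POLE (-0.27) have intervals below 0, and TK1 and CCNE2 have the widest intervals.

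Among licensing genes CDT1, the loader that brings MCM2 to MCM7 to the origin (ENSG00000167513, chromosome 16, 88803789 to 88809258, GRCh38), was lower in CREBBP+/- libraries. It stood at 80.0, 72.2, 79.7, 74.5 and 73.2 CPM in WT_1 to WT_5 and 50.9, 56.6, 64.0, 54.3 and 64.1 CPM in Het_6 to Het_10. Every CREBBP+/- library lay below every CREBBP+/+ library, an arrangement found in 1 of the 43 genes and in 0.594% of all tested genes (1.02% with the opposite arrangement counted too). The means were 75.9 ± 3.67 and 58.0 ± 5.89 CPM (SD, n = 5 each), a 1.31-fold difference. On the log2 scale this was -0.39 (SE 0.09, with a 95% interval of -0.58 to -0.20). In RNA from whole cultures, fewer cells in the phases that express a gene and less of its RNA per cell cannot be told apart. The exact two-sided permutation p over the libraries was 0.00794, the smallest that 5 against 5 allow. Groups that do not overlap have this p by themselves, so it restates that separation and adds nothing to it. CDT1 had also been named by earlier results of these data. Over all genes the edgeR adjusted p was 0.671, the limma-voom adjusted p 0.695 and the DESeq2 adjusted p 0.0131. The DESeq2 call was lost without WT_1, WT_4, Het_7 or Het_9 (adjusted p up to 0.151), while the log2 fold change stayed between -0.43 and -0.34 in all 10 fits of each tool that left out 1 library. Without Het_9 and Het_10 together it was -0.41 (DESeq2 adjusted p = 0.0460).

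The genes beside CDT1 on chromosome 16 were looked at as a description, and edgeR and DESeq2 called none of them. Of the 27 other tested genes within 1 Mb, 23 had a log2 fold change below 0, with a median of -0.16, against 52.4% below 0 and a median of -0.01 among all genes. The estimate of 5 of them was as low as that of CDT1 or lower. APRT, a purine salvage enzyme gene that ends 81 bases from the end of CDT1 on the opposite strand, had 159, 165, 129, 108 and 125 CPM in WT_1 to WT_5 and 103, 111, 99.2, 97.2 and 110 CPM in Het_6 to Het_10 (log2 fold change -0.40, SE 0.12). Its groups overlapped, since WT_4 lay below Het_7 and Het_10. TRAPPC2L, a vesicle tethering gene 46962 bases away, did not overlap between genotypes. It had 45.7 to 57.3 CPM against 36.3 to 41.4 CPM in the CREBBP+/- group (log2 fold change -0.35, SE 0.09). Such an arrangement, without overlap and lower, was found in 1 of the 27 neighbours and in 0.594% of all tested genes. Neither APRT nor TRAPPC2L was called (DESeq2 adjusted p = 0.283 for APRT and 0.132 for TRAPPC2L). Whether counting used strand is not stated in the sources, and reads that run past the ends of CDT1 and APRT could be counted for either. The part of the neighbourhood in the CDT1 difference was not tested. APRT, TRAPPC2L and the 1 Mb window were chosen after the values were seen.

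**Figure D2:**
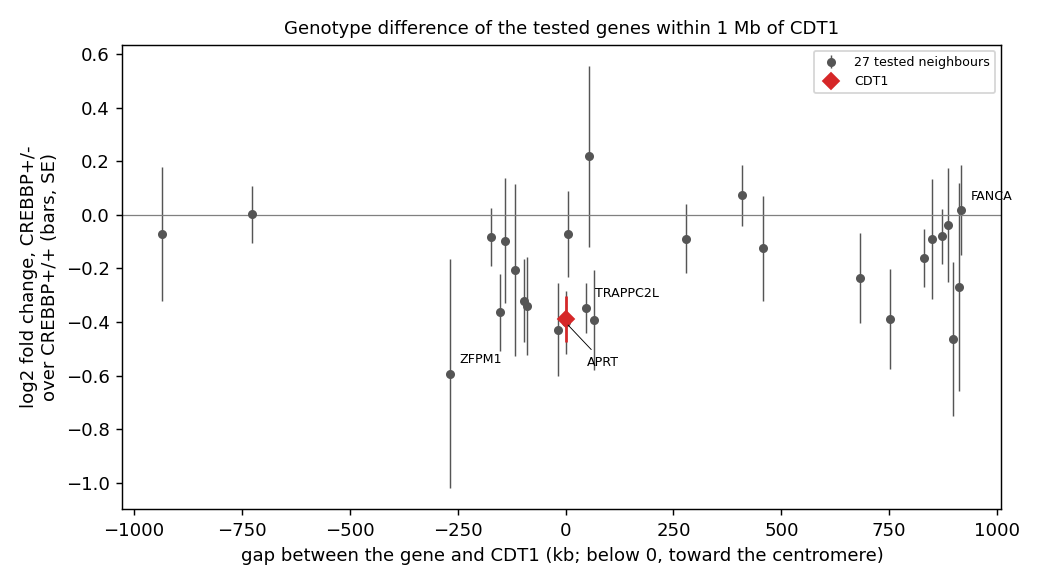
Log2 fold change (CREBBP+/- over CREBBP+/+, y axis, with bars for the SE) of CDT1 and of the 27 tested genes within 1 Mb, by the gap between each gene and CDT1 in kb (x axis). CDT1 stands at -0.39 with APRT (-0.40) beside it, and 23 of the 27 neighbours lie below 0.

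No other licensing gene was called. MCM2, a helicase subunit (chromosome 3, 127598410 to 127622436), had one of the narrowest ranges of all 43. It had 472, 423, 439, 440 and 457 CPM in WT_1 to WT_5 and 402, 400, 424, 405 and 417 CPM in Het_6 to Het_10. Only Het_8 reached into the CREBBP+/+ range, just above WT_2 (log2 fold change -0.12, SE 0.07, edgeR adjusted p = 0.986), and the exact permutation p of MCM2 alone was 0.0159. CDC6, the ATPase that works with CDT1 (chromosome 17, 40287879 to 40304657), had 129, 129, 124, 126 and 127 CPM in WT_1 to WT_5 and 124, 140, 130, 147 and 137 CPM in Het_6 to Het_10. Its CREBBP+/+ libraries were closely grouped and the CREBBP+/- libraries spread around and above them (log2 fold change 0.09, SE 0.07, edgeR adjusted p = 0.988).

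Geminin, the inhibitor that binds CDT1 (GMNN), averaged 96.4 ± 5.34 CPM in the CREBBP+/+ group and 102 ± 4.96 CPM in the CREBBP+/- group, with the higher mean in the latter. The origin recognition subunits ORC1 (69.0 ± 9.54 and 64.1 ± 8.83 CPM) and ORC6 (56.1 ± 14.6 and 49.9 ± 11.6 CPM) overlapped widely. Of the remaining helicase subunits, MCM3 averaged 501 ± 42.8 and 484 ± 17.97 CPM, MCM4 640 ± 105 and 683 ± 82.3 CPM, MCM5 359 ± 25.0 and 346 ± 40.7 CPM, MCM6 207 ± 23.9 and 187 ± 41.7 CPM, and MCM7 602 ± 57.1 and 565 ± 31.4 CPM (SD, n = 5 each). The median log2 fold change of MCM2 to MCM7 was -0.07, with 5 of 6 below 0 and none past the edgeR threshold. CDT1 thus had a larger difference than any of the 10 other licensing genes, of which 7 lay below 0.

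For helicase activation the median log2 fold change was -0.02, and 4 of 6 genes lay below 0. GINS2, a subunit of the complex that joins CDC45 to the ring (chromosome 16, 85676198 to 85690073), had 120, 111, 83.4, 95.5 and 122 CPM in WT_1 to WT_5 and 84.5, 89.1, 105, 118 and 103 CPM in Het_6 to Het_10. High and low libraries occurred in both genotypes (log2 fold change -0.09, SE 0.13, edgeR adjusted p = 0.988, and -0.16 to -0.03 with 1 library left out). The other GINS genes averaged 34.4 ± 7.67 and 36.5 ± 4.54 CPM for GINS1, 40.3 ± 9.91 and 39.7 ± 4.35 CPM for GINS3, and 38.9 ± 7.997 and 38.3 ± 6.70 CPM for GINS4. CDC45 (87.1 ± 4.69 and 90.4 ± 8.77 CPM) and MCM10, which assists in activation (69.5 ± 7.49 and 66.6 ± 6.35 CPM), also overlapped between genotypes.

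The synthesis enzymes, which are the polymerase, clamp and strand joining genes together with nucleotide supply, had 10 of 15 estimates below 0 and a median of -0.09. The catalytic subunits of both leading and lagging strand polymerases had the lowest p of this class. POLD1, the catalytic subunit of polymerase delta (chromosome 19, 50384204 to 50418018), had 214, 171, 194, 211 and 182 CPM in WT_1 to WT_5 and 145, 155, 182, 161 and 182 CPM in Het_6 to Het_10. WT_2 lay within the CREBBP+/- range, so the groups overlapped (log2 fold change -0.24, SE 0.10, edgeR adjusted p = 0.977). POLE, the catalytic subunit of polymerase epsilon (chromosome 12, 132623753 to 132687376), had 265, 289, 234, 268 and 241 CPM in WT_1 to WT_5 and 211, 213, 271, 176 and 207 CPM in Het_6 to Het_10. Het_8 stood among the highest libraries and the other 4 CREBBP+/- libraries below all CREBBP+/+ libraries (log2 fold change -0.27, SE 0.12, edgeR adjusted p = 0.977). Without Het_8, DESeq2 called POLE (-0.36, SE 0.10, DESeq2 adjusted p = 0.0447), and edgeR did not. That DESeq2 fit called 1.03% of 12310 genes in either direction and 0.552% as lower. Without Het_9 and Het_10 the edgeR estimate for POLE was -0.16, and -0.15 with the library clusters as a covariate.

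POLE2, the second subunit of polymerase epsilon, was the scarcest of the 43 in CPM (20.2 ± 4.46 and 16.3 ± 3.18 CPM, log2 fold change -0.31, SE 0.18). Its edgeR estimate was -0.15 when Het_9 and Het_10 were both left out, and -0.10 with a covariate for library cluster. POLA1, which primes synthesis with primase, averaged 142 ± 8.04 and 149 ± 10.03 CPM. RFC2, a subunit of the clamp loader (chromosome 7, 74231499 to 74254458), varied little, with 91.5, 88.8, 100, 103 and 95.6 CPM in WT_1 to WT_5 and 93.0, 94.9, 95.1, 92.6 and 86.5 CPM in Het_6 to Het_10. The groups covered nearly the same levels (log2 fold change -0.05, SE 0.07, edgeR adjusted p = 0.988). Its partners averaged 70.2 ± 10.5 and 64.0 ± 7.01 CPM for RFC3, 142 ± 16.3 and 145 ± 23.3 CPM for RFC4, and 78.0 ± 9.50 and 73.3 ± 8.88 CPM for RFC5. PCNA, the sliding clamp, had 447 ± 59.3 and 407 ± 37.7 CPM. The flap nuclease FEN1 had 239 ± 17.3 and 246 ± 27.1 CPM, and the ligase LIG1 160 ± 29.3 and 145 ± 12.6 CPM.

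Of nucleotide supply genes, the reductase subunits RRM1 (342 ± 40.4 and 368 ± 44.7 CPM) and RRM2 (382 ± 34.99 and 405 ± 28.5 CPM) and thymidylate synthase TYMS (233 ± 16.6 and 224 ± 8.004 CPM) differed little. TK1, the salvage thymidine kinase (chromosome 17, 78174091 to 78187233), had 71.6, 64.1, 167, 151 and 146 CPM in WT_1 to WT_5 and 128, 111, 38.7, 94.4 and 96.6 CPM in Het_6 to Het_10. Low values came from WT_1, WT_2 and Het_8, across genotypes (log2 fold change -0.35, SE 0.35, edgeR adjusted p = 0.988). Leaving out 1 library moved its edgeR log2 fold change between -0.51 and -0.16.

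The 5 chromatin assembly genes centred on 0.02 in log2 fold change (median). UHRF1, which guides maintenance of DNA methylation at forks (chromosome 19, 4903080 to 4962154), had 132, 117, 124, 149 and 128 CPM in WT_1 to WT_5 and 102, 110, 140, 126 and 131 CPM in Het_6 to Het_10. Het_6 and Het_7 were the lowest and Het_8 stood in the CREBBP+/+ range (log2 fold change -0.09, SE 0.11, edgeR adjusted p = 0.988, and -0.15 to -0.03 with 1 library left out). The histone chaperones averaged 175 ± 29.3 and 179 ± 13.97 CPM for CHAF1A, 36.3 ± 2.98 and 36.1 ± 3.57 CPM for CHAF1B, and 98.8 ± 15.0 and 102 ± 16.7 CPM for ASF1B. SLBP, which binds histone mRNA, had 224 ± 25.3 and 226 ± 20.8 CPM.

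S phase entry and checkpoint genes had 5 of 6 estimates below 0, a median of -0.08 and the widest spread of any role. The signs of the estimates are given by cluster as a description. For Het_8 alone against WT_1 and WT_2, 0 of 6 lay below 0 (median 0.18), where 6000 of all 11961 tested genes did. For Het_6 and Het_7 against WT_3, WT_4 and WT_5, 5 of 6 did (median -0.31), where 6170 of all tested genes did. Signs were opposite for 5 of 6 and for 5893 of all tested genes. The median SD of log2 CPM over the 10 libraries was 0.36 for this role, 0.14 for licensing genes, 0.18 for the synthesis enzymes, 0.19 for all 43 and 0.27 for all genes tested. E2F2, an activator E2F (chromosome 1, 23506438 to 23531233), had 80.7, 85.6, 111, 165 and 141 CPM in WT_1 to WT_5 and 79.6, 88.3, 97.1, 94.3 and 125 CPM in Het_6 to Het_10. WT_4 and WT_5 were the highest (log2 fold change -0.27, SE 0.21, edgeR adjusted p = 0.988, and -0.37 to -0.11 with 1 library left out). E2F1, the related activator (chromosome 20, 33675477 to 33686385), had 75.4, 65.9, 139, 176 and 161 CPM in WT_1 to WT_5 and 115, 123, 96.9, 94.9 and 109 CPM in Het_6 to Het_10. Its CREBBP+/- libraries lay between the low WT_1 and WT_2 and the high WT_3, WT_4 and WT_5 (log2 fold change -0.20, SE 0.26, edgeR adjusted p = 0.988, and -0.36 to -0.04 with 1 library left out).

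CCNE2, a cyclin E that drives S phase entry (chromosome 8, 94879770 to 94896678), had 15.9, 23.95, 60.1, 79.5 and 75.4 CPM in WT_1 to WT_5 and 57.0, 59.8, 23.5, 59.1 and 57.0 CPM in Het_6 to Het_10. It had the widest range of the 43, with WT_1, WT_2 and Het_8 low, and its group means were nearly equal (log2 fold change 0.01, SE 0.44, edgeR adjusted p = 0.998, and an interval of -0.95 to 0.97). Its paralog CCNE1 had 23.2 ± 6.07 and 21.6 ± 6.41 CPM. CLSPN, the checkpoint mediator claspin, had 61.8 ± 10.8 and 59.5 ± 8.15 CPM. DTL, the adaptor of the ubiquitin ligase that removes CDT1 protein in S phase, had 63.4 ± 4.57 and 61.3 ± 11.7 CPM.

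**Figure D3:**
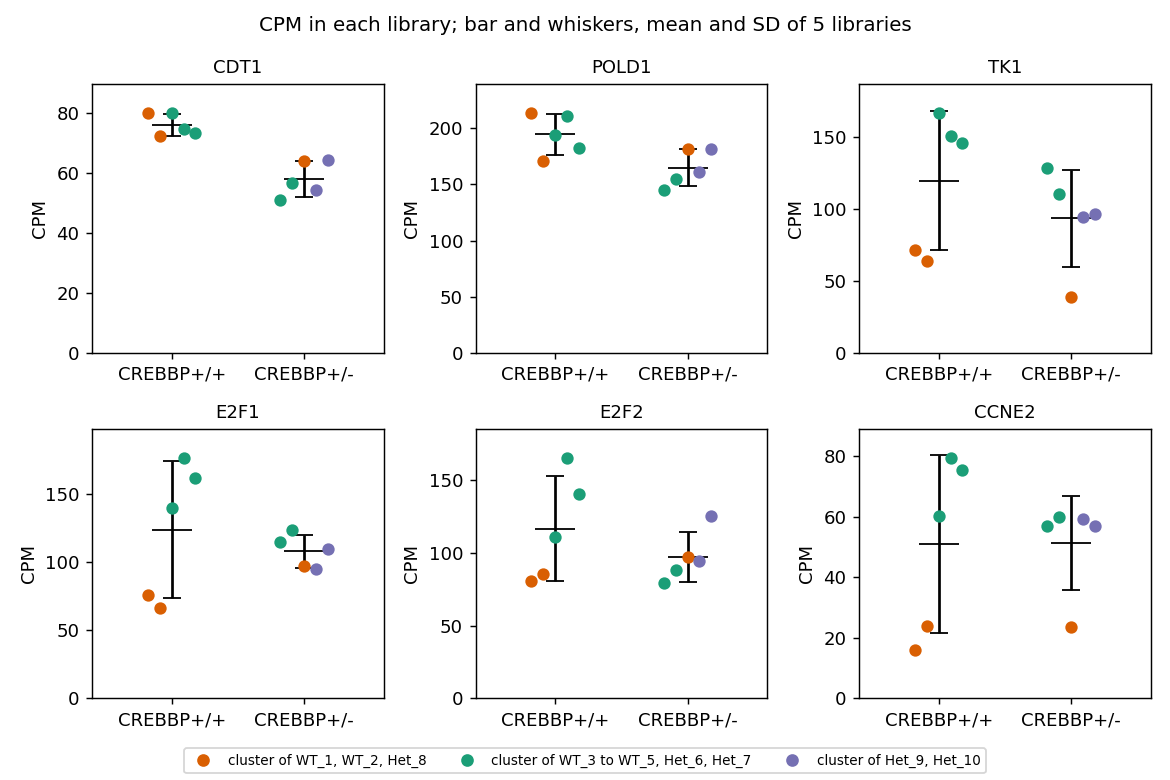
CPM (y axis, from 0) of 6 genes in each CREBBP+/+ and CREBBP+/- library, coloured by library cluster, with the mean and SD of 5 libraries. CDT1 separates the genotypes, while TK1 and CCNE2 are low in WT_1, WT_2 and Het_8 and E2F1 in WT_1 and WT_2.

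Genes with and without an E2F word are set side by side as a description. Of the 21 genes with a word, 18 had a log2 fold change below 0, with a median of -0.09. Of the 18 genes with a promoter and no word, 9 lay below 0, with a median of 0.01. For Het_8 alone against WT_1 and WT_2, 10 of the 21 and 11 of the 18 lay below 0 (medians 0.007 and -0.03). For Het_6 and Het_7 against WT_3, WT_4 and WT_5, 16 and 11 did (medians -0.12 and -0.06). Other tested genes with a word were not compared between genotypes. The lowest estimates were CDT1 with a word and TK1 without.

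Levels were compared between genes per length, as CPM per kb of the canonical transcript. PCNA was highest at 335 CPM per kb, with 281 to 414 in single libraries, and it ranked first also by total exonic length. MCM2 to MCM7, which form a ring with 1 copy of each protein, ran from 52.4 CPM per kb for MCM6 to 237 CPM per kb for MCM7. MCM6 was the lowest of the ring also by total exonic length (47.6 CPM per kb), and MCM3 was then above MCM7 (135 and 118 CPM per kb). CLSPN was lowest of the 43 at 7.13 CPM per kb, and by total exonic length GINS1 was.

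Levels were also set side by side by library cluster. The clusters come from expression, so these differences are a description without a test. Between WT_1, WT_2 and Het_8 on the one hand and WT_3, WT_4, WT_5, Het_6 and Het_7 on the other, 19 of the 43 genes did not overlap, 12 lower and 7 higher in the first, where 45.8% of all tested genes did not overlap. A difference of means over 0.5 in log2 CPM was found in 6 of the 43 genes and in 33.7% of all genes tested. Between Het_9 with Het_10 and the cluster of 5 it was found in 1 of the 43 and in 20.7% of all genes. The median over the 43 genes was -0.02 for the first difference and -0.05 for the second. In each library the median deviation of the 43 genes from their means lay between -0.07 (Het_6) and 0.10 (WT_4) in log2 CPM.

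**Figure D4:**
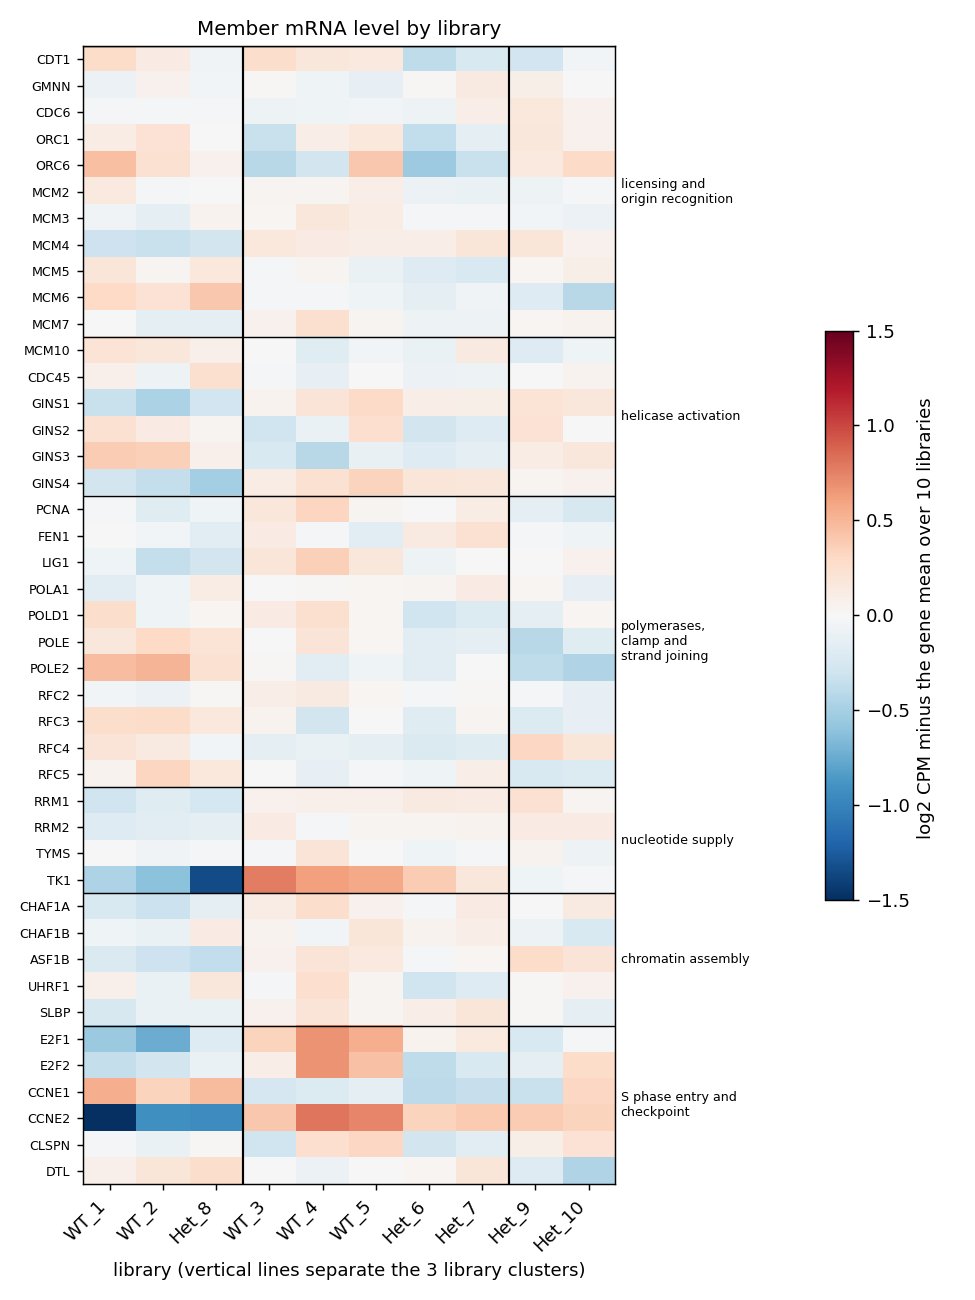
Log2 CPM of the 43 genes (rows, by role) in each library (columns, by cluster) minus the mean of the gene over the 10 libraries, red above and blue below it. TK1, E2F1 and CCNE2 have the widest ranges over the libraries.

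The 6 genes were CCNE2, TK1, E2F1, GINS4 and GINS1, lower in the cluster of WT_1, WT_2 and Het_8, and CCNE1, higher there. CCNE2 had 15.9 to 23.95 CPM in that cluster and 57.0 to 79.5 CPM in the cluster of 5, a difference of -1.66 in mean log2 CPM. CCNE1 went the other way, with 27.4 to 31.8 CPM against 16.6 to 19.7 CPM (0.71). Het_10 (26.9 CPM) stood near the first cluster for CCNE1 and its cluster partner Het_9 (17.2 CPM) with the cluster of 5. The 2 cyclins E therefore lay in opposite directions between these clusters.

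TK1 differed by -1.31, from 38.7 to 71.6 CPM against 111 to 167 CPM, and E2F1 by -0.85, from 65.9 to 96.9 CPM against 115 to 176 CPM. Het_9 and Het_10 were also below the cluster of 5 in both genes, by -0.54 for TK1 and -0.47 for E2F1. The licensing genes differed by at most 0.48 (ORC6), and MCM6 was higher by 0.36 with 225 to 257 CPM against 177 to 192 CPM. All 4 nucleotide supply genes and 4 of 5 chromatin assembly genes had lower means in the cluster of WT_1, WT_2 and Het_8, with medians of -0.27 and -0.26.

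The 3 genes that lie on chromosome 8 were all lower in the cluster of WT_1, WT_2 and Het_8. They were GINS4 (-0.58), MCM4 (-0.44) and CCNE2 (-1.66), at 41529218, 47960185 and 94879770 of that chromosome. Among 276 other tested genes from 40 Mb on of chromosome 8, 228 (82.6%) were lower in that cluster, with a median of -0.46, against 50.5% and -0.01 for all genes tested. GINS4 and MCM4 thus lay close to this median and CCNE2 far below it. On the other chromosomes 19 of the 40 genes were lower, with a median of 0.01. Gene copy number was not measured, so its part was not tested. This pattern was chosen after the values were seen.

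**Figure D5:**
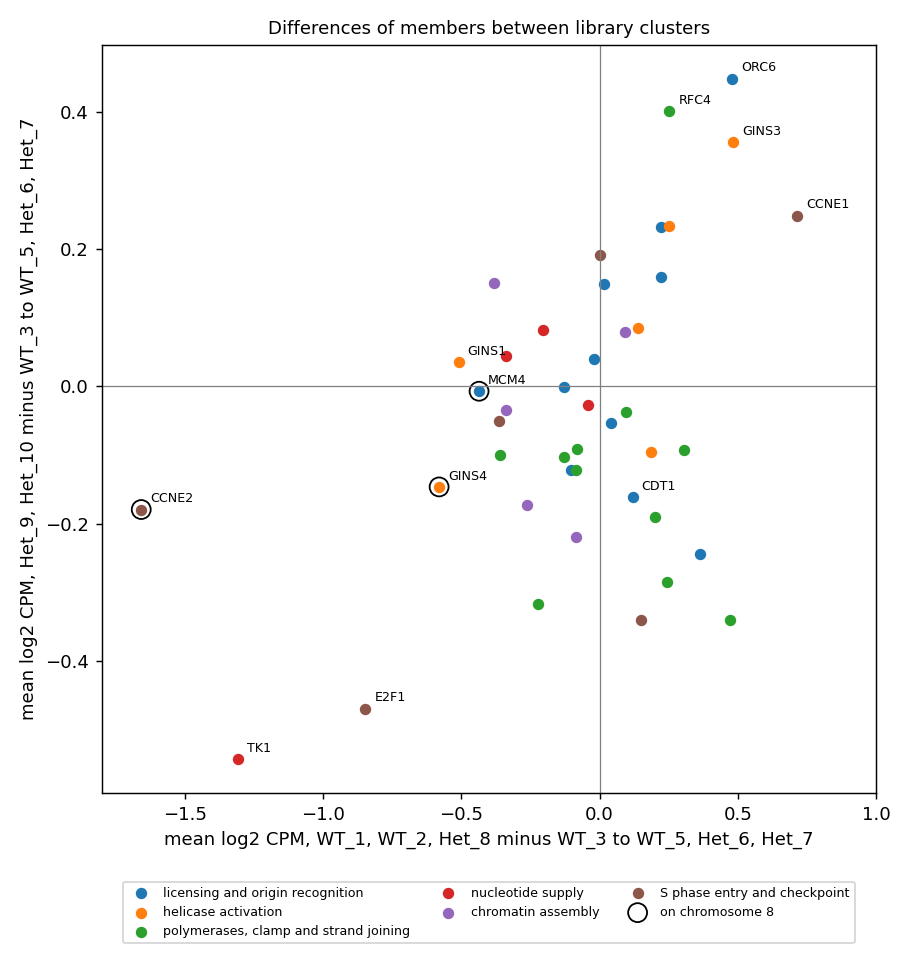
Difference in mean log2 CPM from the cluster of WT_3 to WT_5, Het_6 and Het_7 for the cluster of WT_1, WT_2 and Het_8 (x axis) and for Het_9 and Het_10 (y axis), 1 point per gene, coloured by role. CCNE2 (-1.66), TK1 (-1.31) and E2F1 (-0.85) lie farthest left, CCNE1 (0.71) farthest right, and the 3 genes of chromosome 8 are circled.

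Within clusters the genotype difference of CDT1 kept its direction. Its log2 fold change was -0.25 (SE 0.14) for Het_8 against WT_1 and WT_2 and -0.50 (SE 0.10) for Het_6 and Het_7 against WT_3, WT_4 and WT_5. With the clusters as a covariate it was -0.41 (SE 0.09), with an edgeR adjusted p of 0.198 and a DESeq2 adjusted p of 0.00531. TK1 was lower by -0.81 (SE 0.14) in Het_8, the lowest of all libraries, and by -0.37 (SE 0.10) in Het_6 and Het_7. In the first of these TK1 was the single call among the 43 (edgeR adjusted p = 0.0463, with 0.477% of all genes called and 0.251% as lower), and it rests on 1 library, assumed to vary like the others. In the second, 0 of the 43 and 0.00836% of all genes were called. With the clusters as a covariate DESeq2 called TK1 (-0.51, SE 0.11, adjusted p = 0.00176) beside CDT1. These were 2 of the 43, where it called 1.62% of 11771 genes (1.24% as lower), and edgeR called 0 of the 43 and 0% of all genes. In that fit Het_9 and Het_10 add nothing to the genotype term.

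E2F1 and E2F2 are given in both clusters that hold both genotypes. They had the smallest p of the 43 in the test of the difference between these clusters. UHRF1 was next in that order. Its log2 fold changes were 0.17 (SE 0.13) in the cluster of Het_8 and -0.34 (SE 0.10) in that of Het_6 and Het_7. E2F1 had log2 fold changes of 0.46 (SE 0.15) for Het_8 against WT_1 and WT_2 and -0.42 (SE 0.12) for Het_6 and Het_7 against WT_3, WT_4 and WT_5, and E2F2 had 0.22 (SE 0.23) and -0.73 (SE 0.17). The test of the difference gave an edgeR adjusted p of 0.139 for E2F1 and 0.197 for E2F2, so neither passed, and the first estimate of each rests on Het_8 alone. It called 0 of the 43 and 0.259% of all genes. At an unadjusted p under 0.05 it had 6 of the 43, where 14.7% of all genes passed, and limma-voom called 0 of the 43. Signs were opposite in the clusters for 22 of the 43 genes, below 0 in both for 15 and above 0 in both for 6, and among all tested genes they were opposite for 5893 of 11961.

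Other genes of replication showed as little. Of 36 further replication genes, all tested, 20 had a log2 fold change below 0, with a median of -0.03. edgeR and DESeq2 called 0 of the 36, and 2 had an unadjusted edgeR p under 0.05. The 3 with the smallest p were DTYMK, which makes dTDP (52.3 ± 6.65 and 43.7 ± 3.49 CPM, log2 fold change -0.26, SE 0.10), RECQL4, a helicase of origin firing (142 ± 37.1 and 107 ± 9.91 CPM, -0.41, SE 0.17), and ORC2, an origin recognition subunit (64.9 ± 9.40 and 76.7 ± 7.29 CPM, 0.24, SE 0.12). With the clusters as a covariate DESeq2 called RECQL4 (-0.44, adjusted p = 0.0230).

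Of 23 genes of E2F, RB and G1/S control, 22 were tested and CCND2 had at most 6 counts. Of the 22, 16 lay below 0, with a median of -0.06, and edgeR and DESeq2 called none, with none at an unadjusted edgeR p under 0.05. TFDP1, the partner of E2F proteins on DNA, had 460 to 551 CPM in WT_1 to WT_5, 540, 532 and 475 CPM in Het_6, Het_7 and Het_8, and 820 and 790 CPM in Het_9 and Het_10. Its log2 fold change of 0.31 (SE 0.16) rests on those 2 libraries, since it was 0.03 and 0.00 within the other clusters. E2F3 had a log2 fold change of -0.17 (SE 0.09) and the kinase CDK4 of -0.32 (SE 0.18).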

How the data were processed

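The deposited table holds unnormalized counts of reads for each Ensembl gene in 10 libraries. GRCh38, STAR and featureCounts are among the names in the submitters' processing notes, beside FastQC and DESeq2. No label gives the annotation or the strand setting. All 2541 deposited values from 10000 up carry at most 4 significant digits, as if rounded. The CREBBP+/- columns carry numbers (6 to 10) that no label carries, so they were used by group only. Symbols were matched for 20804 of 21174 identifiers, and coordinates and lengths come from GENCODE v44.

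Genotypes were compared with edgeR 4.0.16 in R 4.3.3: TMM factors, filterByExpr (minimum count 10, minimum total 15), robust dispersions, quasi-likelihood F-test, Benjamini-Hochberg adjustment over 11961 genes and a threshold of 0.05, two-sided. CPM were scaled by TMM and log2 CPM used a prior count of 2. Exact permutation tests ran over 252 assignments of 10 libraries. Library clusters came from average-linkage clustering of the tested genes without the 43 genes, with the tree cut into 3 clusters. Alternatives were DESeq2 1.42.0, limma 3.58.1 (voom), other factors and filters, leaving out libraries and the clusters as a covariate. The fits were tested on simulated data. Genes with values in every library were CDT1 and other genes called or without overlap, the smallest edgeR p of each role, and the 3 widest and 3 narrowest ranges. POLE, APRT and TRAPPC2L were added after their values were seen. Of each other list the 3 genes with the smallest p are named, and any called; the B cell marker list is used for identity alone, and 1 of its results is not reported here. The 43 genes and the lists were chosen with earlier results of these data known.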

Additional observations from a re-analysis of the deposited data

Results flagged for a closer look

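In 8 of 86 groups of 5 libraries (43 genes in 2 genotypes), the gap from the highest or lowest library to the nearest of the others took up over 0.71 of the spread, where chance gives about 1 in 20 (4). Het_8 accounted for 5 of the 8; it is the CREBBP+/- library that clusters with WT_1 and WT_2. It was the lowest CREBBP+/- library in log2 CPM of CCNE2 (4.56, next 5.84), TK1 (5.28, next 6.56), GINS4 (4.75, next 5.30), GINS1 (4.85, next 5.22) and MCM4 (9.09, next 9.42). CCNE2, GINS4 and MCM4 are those on chromosome 8. WT_3 was the lowest CREBBP+/+ library for ORC1 (5.72, next 6.15). WT_4 was the highest for TYMS (8.04, next 7.85), and Het_10 the lowest CREBBP+/- library for RFC2 (6.44, next 6.53).

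The genotype difference of CCNB1, a mitotic cyclin, differed between clusters. Its log2 fold change was -0.79 (SE 0.12) for Het_8 against WT_1 and WT_2, with 112 CPM against 187 and 201 CPM, and 0.16 (SE 0.09) for Het_6 and Het_7 against WT_3, WT_4 and WT_5. The difference of these was -0.95 (SE 0.15, edgeR interaction adjusted p = 0.0446). It rests on Het_8, the single CREBBP+/- library of its cluster, and limma-voom did not call it (adjusted p = 0.0588).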

How the results depend on the processing

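No paired analysis was possible because the labels name no pairs of libraries. The CREBBP+/- columns also carry numbers that no label carries. edgeR called 0 of the 43 genes under each normalization, filter and left-out library tried, and limma-voom called 0. DESeq2 called 1, and 0 to 2 when 1 library was left out, 1 when Het_9 and Het_10 were both left out, and 2 with a covariate for library cluster. The log2 fold change of CDT1 passed the DESeq2 threshold at -0.39 with all libraries, at -0.41 when Het_9 and Het_10 were both left out, at -0.40 with the clusters, and at -0.43 to -0.34 (-0.37 without WT_3) in 6 of 10 fits that left out 1 library. POLE passed it at -0.36 without Het_8. The number of genes below 0 was 27 to 33 when 1 library was left out and 26 with upper-quartile factors, where their median was -0.03 in place of -0.06, as it did without Het_6. CCNE2, at 0.01, changed sign under several settings. It was at -0.12 in edgeR and -0.11 in DESeq2 when Het_9 and Het_10 were both left out, at -0.11 and -0.10 with the clusters, and between -0.22 and 0.22 in edgeR with 1 library left out. In DESeq2 it was -0.22 without WT_1, -0.17 without WT_2, -0.030 without Het_6, -0.050 without Het_7, -0.041 without Het_9 and -0.025 without Het_10. The cause was not tested. Counts were 149 or more for each of the 43 genes in every library, and counting error weighs most on the scarcest of them, such as POLE2 and CCNE1. The 5 libraries per genotype limit the precision of every comparison.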

Other observations

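Genes of mitosis, which act after replication, are given beside the replication genes as a description, and the difference between these gene groups was not tested. Of 25 tested mitosis genes, 24 had a log2 fold change below 0 for Het_8 against WT_1 and WT_2, with a median of -0.30, while 22 of the 43 replication genes lay below 0 with a median of -0.00, as did 6000 of all 11961 genes with the same median. In that comparison, which rests on the single library Het_8 and called 0.477% of all genes, edgeR called PLK1, a mitotic kinase (-0.75, SE 0.11, adjusted p = 0.0203), and CCNB1 (-0.79, SE 0.12, adjusted p = 0.0283). For Het_6 and Het_7 against WT_3, WT_4 and WT_5, 8 of 25 mitosis genes lay below 0 with a median of 0.07. Of the 43 replication genes 30 did (median -0.10), and of all 11961 genes 6170 (median -0.01). Over all libraries 18 of 25 mitosis genes lay below 0 (median -0.08), and edgeR and DESeq2 called none of them, with 1 at an unadjusted edgeR p under 0.05. The smallest p values were those of the kinase AURKB (122 ± 13.7 and 99.1 ± 13.1 CPM, log2 fold change -0.30, SE 0.11), the anaphase activator CDC20 (184 ± 28.7 and 147 ± 30.3 CPM, -0.33, SE 0.16) and the checkpoint kinase BUB1 (84.4 ± 8.49 and 72.1 ± 10.1 CPM, -0.23, SE 0.11). With the clusters as a covariate DESeq2 called CDC20 (adjusted p = 0.00132).

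Of 7 inhibitors of cyclin-dependent kinases, 6 were tested, 5 lay below 0 and none was called by edgeR or DESeq2. CDKN2B, the p15 inhibitor, had 1.73 ± 0.600 and 3.01 ± 1.33 CPM (log2 fold change 0.80, SE 0.37), CDKN2A 80.5 ± 8.51 and 73.5 ± 10.7 CPM, and CDKN1B 25.6 ± 5.24 and 23.0 ± 1.72 CPM.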
